A study of Rattus norvegicus with 38 samples.

Results

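A set of 6 genes that astrocytes of the brain express strongly was followed in laser-cut vessels and neuron clusters of the rat frontal cortex. They were chosen by name and Ensembl ID: Gfap (ENSRNOG00000002919), Aqp4 (ENSRNOG00000016043), Gja1 (ENSRNOG00000000805), Apoe (ENSRNOG00000018454), S100b (ENSRNOG00000001295) and Slc1a2 (ENSRNOG00000005479). All 6 IDs were present among the 32883 IDs of the count table, and all 6 passed the filter on low counts in both materials. Each of 19 animals gave 1 vessel library and 1 neuron library, 38 in all. In each material 5 animals were late-stage SHRSP, 4 late-stage Wistar, 5 early-stage SHRSP and 5 early-stage Wistar. SHRSP is the stroke-prone spontaneously hypertensive rat and Wistar the strain it was set against. Late animals were 32 to 34 weeks old and early animals 24 to 25 weeks old, and no treatment is named for any group. The study asked how the signature of hypertension differs with its stage.

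Astrocytes wrap the vessels of the brain with flat processes, the endfeet, and reach around synapses with finer ones. Gfap encodes an intermediate filament of the astrocyte cytoskeleton. Aqp4 encodes a water channel that is concentrated in the endfeet, and Gja1 encodes connexin 43, which forms gap junctions between astrocytes. Apoe encodes a lipid carrier that astrocytes secrete and that microglia and cells of the vessel wall also make. S100b encodes a calcium-binding protein that some oligodendrocytes express as well. Slc1a2 encodes GLT-1, the transporter that clears most glutamate from synapses.

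Library totals lay between 1198386 and 4963429 counts. The libraries were not alike. The most abundant ID of the table, ENSRNOG00000043866, took 4.34% to 10.7% of the counts in the neuron libraries of 8 animals and 20.4% to 35.5% in those of the other 11, called low-share and high-share animals below. The vessel libraries of the low-share animals held 4104 to 8752 IDs with at least 1 count, against 9875 to 11974 in the high-share animals. The neuron libraries held 9501 to 13975 in low-share and 13452 to 14305 in high-share animals. In both kinds of animal every vessel library thus held fewer IDs than every neuron library. The bearing of this on the vessel-neuron differences was not tested. All 9 late animals were high-share, with 1 early SHRSP and 1 early Wistar animal (animals 383 and 349), so this split nearly coincides with the stage. The IDs could not be paired with gene names here, so the labelled vessels and neurons were not checked against markers of endothelial cells, mural cells, neurons or microglia, and the part of other cells in the results below was not tested.

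The 6 genes together took 0.339% to 0.863% of the counts in vessel libraries (median 0.601%) and 0.160% to 0.478% in neuron libraries (median 0.275%). Levels below are in CPM, the counts of a gene relative to its library's total, with totals scaled by the TMM method over the 38 libraries. In cut pieces that hold many cells, fewer astrocytes and less RNA per astrocyte cannot be told apart. The 250 bases upstream of an annotated start are shown for the 2 genes whose vessel and neuron levels did not overlap (Gfap and Apoe), for the gene that differed from them in direction (Slc1a2) and for the only gene with a motif match (Gja1). They come from RefSeq on the build GRCr8, 5′ to 3′ on the strand of the gene, and capitals mark the match. All 6 genes had a window in that table, 10 windows in all.
Gfap, chr10:88361662-88361911, minus strand: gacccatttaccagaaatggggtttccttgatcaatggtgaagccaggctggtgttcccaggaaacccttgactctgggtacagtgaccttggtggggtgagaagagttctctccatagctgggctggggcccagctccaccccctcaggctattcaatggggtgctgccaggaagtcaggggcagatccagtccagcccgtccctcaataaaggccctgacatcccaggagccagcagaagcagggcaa
Apoe, chr1:88485817-88486066, minus strand: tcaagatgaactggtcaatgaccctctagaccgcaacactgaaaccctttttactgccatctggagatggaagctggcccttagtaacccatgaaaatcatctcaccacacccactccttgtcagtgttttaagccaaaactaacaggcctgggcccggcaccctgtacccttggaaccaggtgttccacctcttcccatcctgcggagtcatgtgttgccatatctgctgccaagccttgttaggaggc
Slc1a2, chr3:109459859-109460108, plus strand: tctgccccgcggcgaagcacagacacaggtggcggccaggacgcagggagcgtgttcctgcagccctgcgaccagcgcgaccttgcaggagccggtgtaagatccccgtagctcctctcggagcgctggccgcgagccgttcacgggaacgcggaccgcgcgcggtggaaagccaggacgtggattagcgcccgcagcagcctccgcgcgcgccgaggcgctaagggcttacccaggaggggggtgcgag
Gja1, chr20:36302314-36302563, plus strand: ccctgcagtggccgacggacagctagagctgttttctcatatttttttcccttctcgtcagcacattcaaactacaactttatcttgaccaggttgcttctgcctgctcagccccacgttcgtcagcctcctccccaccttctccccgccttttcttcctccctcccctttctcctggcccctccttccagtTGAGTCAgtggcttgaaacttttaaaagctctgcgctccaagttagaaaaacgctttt
A search for 5 motifs was run on both strands of all 10 windows of the 6 genes. The motifs were STAT (TTCNNNGAA, in 7.67% of 33469 windows of the same length), AP-1 (TGANTCA, 6.34%), the palindromic NFI motif (0.0359%), the TATA box (TATAAA, 12.9%) and the E-box (CACGTG, 5.59%). The one match was an AP-1 motif, TGAGTCA, 58 bases before an annotated Gja1 start. That start is not the outermost one of the gene. Apoe has 3 windows in the table and Slc1a2 has 2, of which the one at the outermost start is shown.

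Vessels were set against neurons of the same animals. Gfap, Apoe, Aqp4, Gja1 and S100b were higher in vessels and Slc1a2 was lower, as means over the 4 groups of animals. Gfap differed most, by 8.40-fold, followed by Apoe (3.07-fold) and Aqp4 (2.57-fold). All 6 genes were called in edgeR's quasi-likelihood test with Benjamini-Hochberg adjustment, against 50.5% of the 12117 IDs tested, and 5 of the 6 were called higher, against 3.08% of IDs, with 47.5% called lower. The median log2 fold of all tested IDs was -1.63, or -1.44 with DESeq2-type scaling, and that of the 6 genes was 1.01.

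Gfap had 21.0 to 343 CPM in vessel libraries (median 123) and 6.74 to 20.8 CPM in neuron libraries (median 13.3). The lowest vessel library lay above the highest neuron library, and vessels were higher in 19 of 19 animals, by 2.35-fold to 25.3-fold. The log2 fold was 3.07 (SE 0.54, adjusted p = 1.60e-06), larger than that of 98.8% of the IDs tested. Within the high-share animals the log2 fold was 3.29 (adjusted p = 1.14e-12) and within the early low-share animals 2.86 (adjusted p = 0.0778).

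Apoe had 1388 to 4523 CPM in vessel libraries (median 2429) and 574 to 1254 CPM in neuron libraries (median 868). Here too the materials did not overlap, and vessels were higher in 19 of 19 animals. Such separation upward was found for 0.198% of the IDs tested. The log2 fold was 1.62 (SE 0.14, adjusted p = 5.97e-30), and it was called in all 27 alternative settings, between 1.31 and 1.85.

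For Aqp4 and Gja1 the materials overlapped. Aqp4 had 1.19 to 945 CPM in vessels (median 199) and 31.1 to 99.6 CPM in neurons (median 69.6), with vessels higher in 16 of 19 animals. Its log2 fold was 1.36 (SE 0.42, adjusted p = 0.00544). Both extremes were vessel libraries of early low-share animals: Aqp4 had 3 counts in animals 346 and 377, and at least 203 counts in each of the other vessel libraries. In the high-share animals its log2 fold was 1.78 (adjusted p = 2.41e-08), in the early low-share animals 1.02 (adjusted p = 0.449), and with the split as a term 0.69 (adjusted p = 0.625). Gja1 had 266 to 901 CPM in vessels (median 415) and 178 to 474 CPM in neurons (median 284). The 2 ranges overlapped, vessels were higher in 15 of 19 animals, and the log2 fold was 0.67 (SE 0.24, adjusted p = 0.0169). It was 0.69 with the split as a term (adjusted p = 0.303) and 0.82 in the early low-share animals (adjusted p = 0.130). For vessels over neurons, the split as a term sets the values of both genes at the low-share level. No late animal was low-share, so these values are not differences adjusted for the split over all animals.

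S100b, the calcium-binding protein gene, had 1445 to 3890 CPM in vessels (median 2144) and 833 to 2626 CPM in neurons (median 1377). Vessels were higher in 17 of 19 animals, with a log2 fold of 0.64 (SE 0.13, adjusted p = 4.24e-05). The annotated extent of S100b overlaps that of Dip2a in the GRCr8 annotation. No source used here gives the strand setting of the counting, so the share of these counts that came from Dip2a was not tested. The other 5 genes overlap no annotated gene.

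Slc1a2 was the one gene of the set below its neuron level in the mean, with a log2 fold of -1.88 (SE 0.78, adjusted p = 0.0355). This was larger than the log2 fold of 43.3% of the IDs tested and near their median of -1.63. Of those IDs, 47.5% were called lower, so this direction was common among them. It had 0 to 133 CPM in vessels (median 37.0) and 7.96 to 109 CPM in neurons (median 34.0), and vessels were higher in 7 of 19 animals. Its vessel counts split by library: 6 of the 8 low-share vessel libraries had at most 3 counts, 3 of them 0, and the other 2 had 43 and 404 counts. All 11 high-share vessel libraries had 91 to 262 counts. In the high-share animals alone the log2 fold was 0.21 (adjusted p = 0.756), and in the early low-share animals -4.99 (adjusted p = 0.0700). Without the animal as a block it was -0.20 (adjusted p = 0.844). The call was also lost without any 1 of 11 animals (adjusted p between 0.0514 and 0.113).

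**Figure D1:**
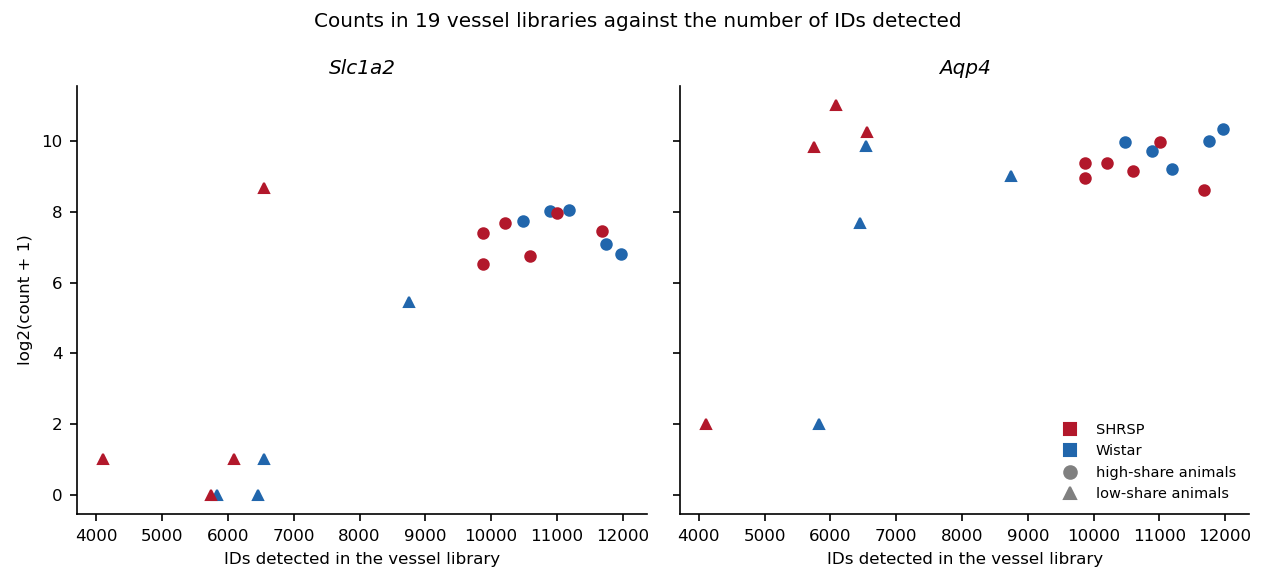
Counts of Slc1a2 (left) and Aqp4 (right) in each of the 19 vessel libraries, as log2(count + 1), against the number of IDs with at least 1 count in that library. Triangles are low-share and circles high-share animals; 6 Slc1a2 triangles lie at or under 3 counts, and 2 Aqp4 triangles at 3 counts.

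**Figure D2:**
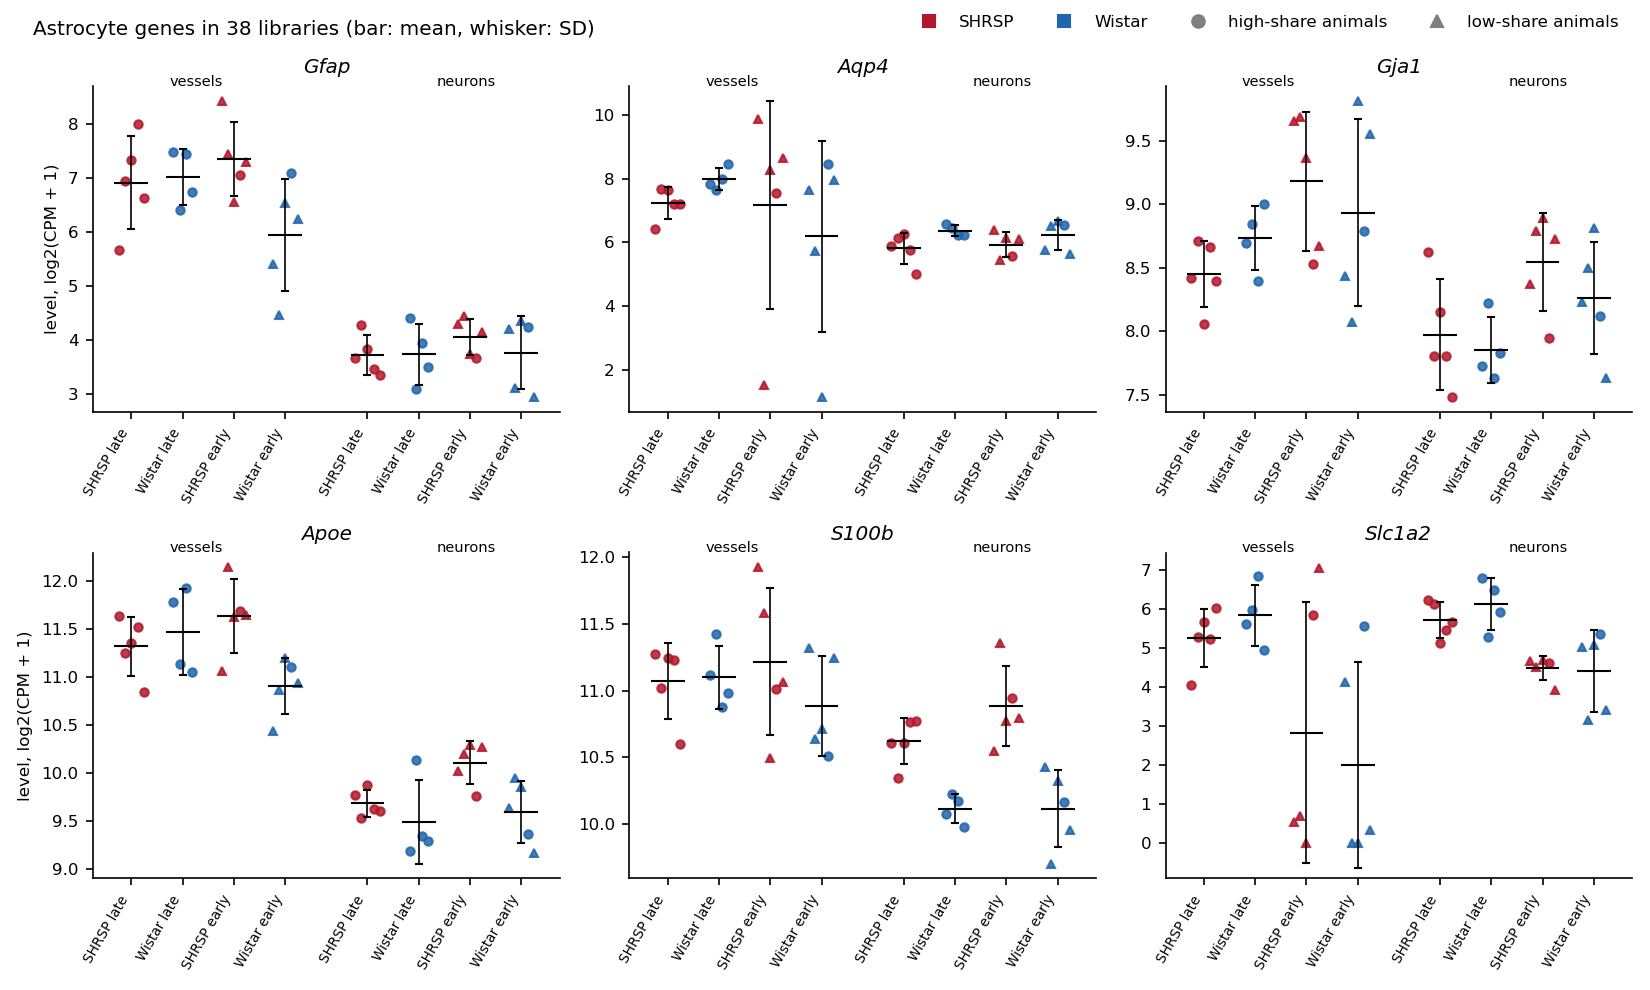
Level of each gene, as log2(CPM + 1), in the 38 libraries by material, strain and stage, with the mean (bar) and SD (whisker) of each group. The vessel points of Gfap and Apoe lie above all their neuron points, while Slc1a2 in early vessels splits into 6 libraries near 0 and others between 16.4 and 133 CPM.

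The size of the vessel-neuron difference was then compared between the genes themselves, within animals. On log2(CPM + 1) the difference averaged 2.97 ± 0.83 for Gfap, 1.59 ± 0.50 for Apoe, 1.03 ± 2.22 for Aqp4, 0.66 ± 0.58 for Gja1, 0.62 ± 0.47 for S100b and -1.25 ± 2.24 for Slc1a2 (SD, n = 19 each). Of the 15 pairs of genes, 11 differed (permutation test by sign flips, two-sided, adjusted over the 15 pairs). Gfap exceeded each of the other 5 genes, in 18 of 19 animals for Aqp4 and in 19 of 19 for the rest (adjusted permutation p = 5.0e-05 for Aqp4 and 3.75e-05 for the others, from the smallest p that 100000 sign flips can give). Slc1a2 was below each of the other 5, with an adjusted permutation p of at most 0.00479. In the 11 high-share animals its distance from S100b was 0.79 ± 1.22, no longer called (adjusted permutation p = 0.0719), against 1.87 ± 2.34 in all 19, and its distance from Gja1 was 0.84 ± 1.06 (adjusted permutation p = 0.0415), against 1.91 ± 2.46. In the 8 low-share animals the pairs called were those of Gfap with Gja1, Apoe, S100b and Slc1a2. Apoe exceeded Gja1 in 17 of 19 animals by 0.94 ± 0.64 (adjusted permutation p = 5.0e-05) and S100b in 15 of 19 by 0.98 ± 0.71 (adjusted permutation p = 0.00010). Aqp4 was not separated from Gja1, Apoe or S100b, nor Gja1 from S100b, which differed by 0.04 ± 0.65. In the 11 high-share animals Aqp4 did exceed Gja1, in 11 of 11 animals, by 0.94 ± 0.39 (adjusted permutation p = 0.00152), and S100b in 10 of 11, by 0.99 ± 0.77 (adjusted permutation p = 0.00375). In the 8 low-share animals these differences were -0.40 ± 3.42 and -0.37 ± 3.20.

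**Figure D3:**
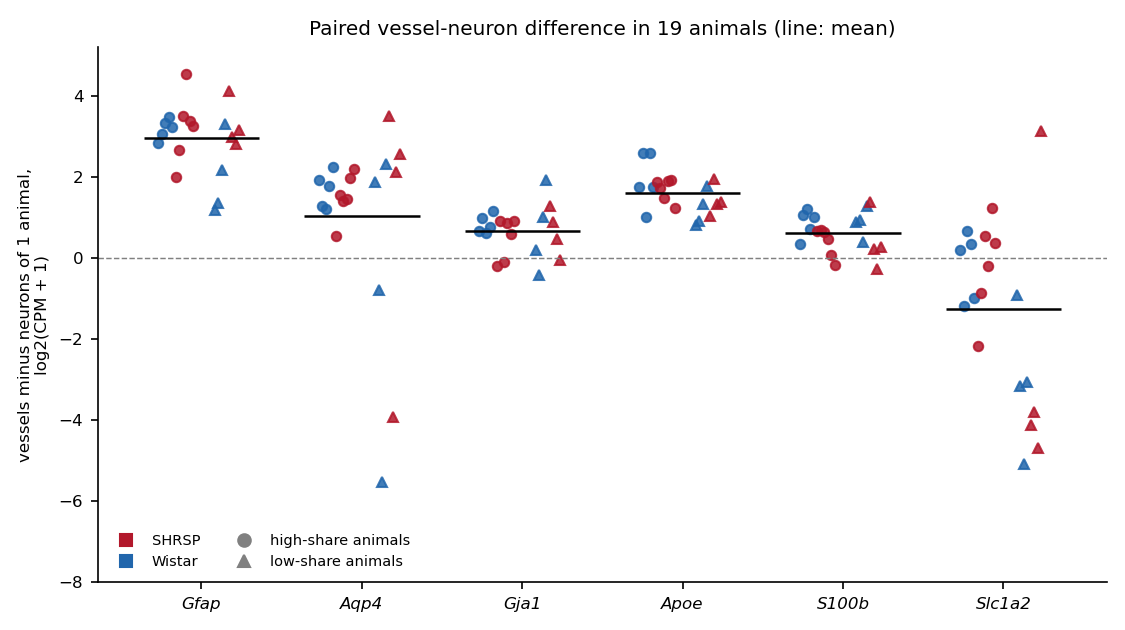
Difference between the vessel and the neuron library of each of 19 animals in log2(CPM + 1), by gene, with the mean as a line. All Gfap and Apoe points lie above 0; the points far below 0 for Aqp4 and Slc1a2 are triangles, which mark low-share animals.

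Within single groups fewer of the differences between materials were called. Apoe was higher in vessels in each group: by a log2 fold of 1.64 (SE 0.26, adjusted p = 2.11e-07) in late SHRSP, 1.99 (SE 0.30, adjusted p = 4.26e-08) in late Wistar, 1.53 (SE 0.26, adjusted p = 1.82e-06) in early SHRSP and 1.32 (SE 0.26, adjusted p = 0.000243) in early Wistar animals. Apoe alone was called in late SHRSP, late Wistar and early Wistar animals, where 0.883%, 0.371% and 0.677% of IDs were called. In early SHRSP animals, where 39.1% of IDs were called, Gfap passed too (log2 fold 3.36, SE 1.06, adjusted p = 0.0111). Gfap missed the threshold with log2 folds of 3.28 in late SHRSP (adjusted p = 0.10), 3.38 in late Wistar (adjusted p = 0.335) and 2.26 in early Wistar animals (adjusted p = 0.184). DESeq2 called Gfap and Apoe in each of the 4 groups. The median log2 fold was 0.96 over the 6 genes and -0.46 over all tested IDs in late SHRSP, and 1.31 and -0.36 in late Wistar animals. In early SHRSP it was 1.08 over the 6 genes and -3.71 over all IDs, and in early Wistar animals 0.72 and -1.65. The difference between materials was not called as different between SHRSP and Wistar for any of the 6 genes, nor for any of the 12117 IDs, of which 686 had an unadjusted p under 0.05 (0 of the 6 genes). DESeq2 and voom called 0 of the 6 genes there too, with 44 and 1 IDs called higher and 280 and 0 lower. Its change from stage to stage was called for 0 of the 6 genes and 0.0413% of IDs, while the median change of all IDs was 1.98 (late minus early). Slc1a2 had the largest value, 3.02 (SE 1.56, adjusted p = 0.208), and was called by DESeq2 (adjusted p = 0.0258). Its direction turned with the library split as a term (-1.11), in high-share animals alone (-1.16) and without the animal as a block (-0.24). The other 5 genes had values between 0.03 (Gja1) and 0.52 (Gfap), below that median. Those of Gja1 and S100b turned negative with DESeq2-type scaling (-0.23 and -0.09). With the split as a term Aqp4 (-0.41) and Apoe (-0.02) turned negative. In high-share animals alone Aqp4 (-0.47), Apoe (-0.08) and Gja1 (-0.001) did so. Without the animal as a block Aqp4 (-0.31) and Gja1 (-0.06) did so.

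In vessels, SHRSP and Wistar animals were compared at each stage, to see whether the astrocyte genes differ between the strains. The hypertensive strain was set against another strain, so hypertension and strain background cannot be told apart, in vessels or in neurons. None of the 6 genes was called at either stage, where 0% of 11011 IDs were called late and 0.254% early, nor as a mean of stages (0.0817%), and DESeq2 and voom also called 0 of the 6 in these comparisons. In edgeR 0 of the 6 genes had an unadjusted p under 0.05 in the late stage, against 102 of 11011 IDs, and 1 of the 6, Apoe, in the early stage, against 1686 of 11011 IDs. The log2 folds ran from -0.72 to 0.03 in the late stage and from 0.18 to 1.60 in the early stage, positive for 1 gene late (2 with DESeq2-type scaling, S100b at 0.03) and for all 6 early. The medians of the 6 were -0.23 late and 0.92 early, against -0.01 and -0.20 over all tested IDs. In high-share animals alone, with 1 early library a strain, the early values of Aqp4 (-0.93), Gja1 (-0.27) and Gfap (-0.04) were negative. Apoe had the smallest early p of the 6. It had 2140, 3149, 3210, 3306 and 4523 CPM in early SHRSP vessels, against 1388, 1871, 1962, 2204 and 2345 CPM in early Wistar vessels. Only the lowest SHRSP library lay within the Wistar range, and the log2 fold was 0.74 (SE 0.25, unadjusted p = 0.00261, adjusted p = 0.127). Of 27 alternatives it passed only the one without animal 383 (adjusted p = 0.0412). At the late stage SHRSP vessels had 1840, 2429, 2614, 2929 and 3179 CPM of Apoe, against 2117, 2245, 3514 and 3893 CPM in Wistar vessels, which overlapped (log2 fold -0.18, SE 0.26). The change of this strain difference with stage, -0.91 (SE 0.36), had an adjusted p of 0.536.

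Gfap had wider spread, with 92.8, 132, 157, 172 and 343 CPM in early SHRSP vessels, against 21.0, 41.3, 74.7, 91.5 and 135 CPM in early Wistar vessels. In this early pair 4 of the 5 Wistar libraries lay below every SHRSP library, and the log2 fold was 1.30 (SE 0.89, adjusted p = 0.518). Late SHRSP vessels had 50.1, 97.5, 123, 160 and 254 CPM, against 84.5, 106, 172 and 177 CPM in late Wistar vessels, a log2 fold of 0.03 (SE 0.93). Aqp4 had 84.5, 145, 148, 199 and 203 CPM in late SHRSP vessels, against 199, 227, 254 and 349 CPM in late Wistar vessels. Of these, 3 of the 5 SHRSP libraries lay below every Wistar library, and the log2 fold of -0.72 (SE 0.69) did not pass (unadjusted p = 0.294).

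In early vessels Aqp4 had 1.85, 185, 306, 399 and 945 CPM in SHRSP animals, against 1.19, 51.4, 199, 248 and 352 CPM in Wistar animals. Each strain had 1 library close to 0, and the ranges overlapped (log2 fold 1.11, SE 0.66, adjusted p = 0.424). Slc1a2 had 15.6, 37.0, 37.9, 49.8 and 64.4 CPM in late SHRSP vessels, within or near the range of late Wistar vessels, which reached 113 CPM (log2 fold -0.62, SE 1.61). Early SHRSP vessels had 0, 0.459, 0.618, 56.9 and 133 CPM of Slc1a2, and the library at 133 CPM, of animal 386, was the 1 low-share vessel library above the late SHRSP range. Gja1, the gap junction gene, averaged 353 ± 61.3 CPM in late SHRSP vessels (SD, n = 5) and 430 ± 73.7 CPM in late Wistar vessels (n = 4). In early vessels it averaged 613 ± 216 CPM in SHRSP and 541 ± 272 CPM in Wistar animals (SD, n = 5 each). S100b averaged 2190 ± 390 CPM in late SHRSP vessels and 2219 ± 378 CPM in late Wistar vessels. For both genes the strains overlapped at each stage.

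Late vessels were also set against early vessels within each strain. None of the 6 genes was called in SHRSP or in Wistar animals, against 0.00908% of IDs in each, nor by DESeq2 or voom. At an unadjusted p under 0.05 there were 0 of the 6 in SHRSP vessels, against 1527 of 11011 IDs, and 1 in Wistar vessels, against 401 of 11011 IDs. That gene was Apoe (log2 fold 0.59, SE 0.26, unadjusted p = 0.0222, adjusted p = 0.915). The median of all IDs was 0.45 in SHRSP and 0.21 in Wistar vessels. In SHRSP vessels the log2 folds ran from -1.23 (Aqp4, SE 0.66) to 0.10 (Slc1a2, SE 1.53). In Wistar vessels they ran from -0.33 (Gja1, SE 0.50) to 2.32 (Slc1a2, SE 1.66). Slc1a2 had 30.0, 47.8, 61.6 and 113 CPM in late Wistar vessels, against 0, 0, 0.265, 16.4 and 46.5 CPM in early ones. The high-share early library, at 46.5 CPM, lay within the late range.

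In neuron clusters, S100b was higher in SHRSP than in Wistar animals, as a mean of stages and in the early stage. It had 1301, 1561, 1562, 1739 and 1752 CPM in late SHRSP neurons, against 1009, 1077, 1155 and 1195 CPM in late Wistar neurons. In the early stage it had 1497, 1747, 1773, 1970 and 2626 CPM in SHRSP neurons, against 833, 993, 1150, 1278 and 1377 CPM in Wistar neurons. The strains did not overlap at either stage, a separation upward that 1.17% of 10833 IDs showed late and 1.3% early. As a mean of stages S100b was 1.54-fold higher in SHRSP neurons (log2 fold 0.62, SE 0.11, adjusted p = 0.00595). It was the only one of the 6 genes called there, against 0.332% of IDs called higher and 0.674% called in either direction.

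By stage, the S100b strain difference was 0.49 (SE 0.16, unadjusted p = 0.00557, adjusted p = 0.837) late, where 0.0369% of IDs were called, and 0.75 (SE 0.15, adjusted p = 0.0304) early, where 0.222% were called (0.138% higher). The change with stage, -0.26, was not called (unadjusted p = 0.257), with 0% of IDs called by edgeR, DESeq2 or voom and 254 at an unadjusted p under 0.05. The mean of stages was called without each animal in turn and with the library split as a term (0.62, adjusted p = 0.00576). In high-share animals alone the value was much the same, 0.61, with an adjusted p of 0.478. The early call was lost without any 1 of 7 animals (343, 349, 368, 377, 380, 383 or 386), with log2 folds between 0.61 and 0.79 and adjusted p up to 0.136. In vessels the S100b strain difference was 0.18 (SE 0.19) as a mean of stages, and its difference from that in neurons, -0.49 (SE 0.26), was not called (adjusted p = 0.864).

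The other 5 genes showed no called strain difference in neurons. Aqp4 ran the other way from S100b, with 31.1, 53.6, 57.7, 68.5 and 75.1 CPM in late SHRSP neurons and 73.1, 73.3, 85.8 and 93.7 CPM in late Wistar neurons. These overlapped by 1 SHRSP library. Its log2 fold was -0.45 (SE 0.18, unadjusted p = 0.0188, adjusted p = 0.462) as a mean of stages. Apoe had 0.30 (SE 0.13, adjusted p = 0.521), Gja1 0.19 (SE 0.16), Gfap 0.05 (SE 0.26) and Slc1a2 -0.34 (SE 0.27).

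Between stages in neurons, Slc1a2 was higher in late animals of both strains, and the other 5 genes were not called. It had 34.0, 42.9, 50.03, 69.3 and 74.1 CPM in late SHRSP neurons, against 14.3, 21.7, 23.7, 24.5 and 24.8 CPM in early SHRSP neurons. In Wistar neurons it had 38.3, 60.1, 89.6 and 109 CPM late, against 7.96, 9.59, 31.8, 33.1 and 40.4 CPM early. The stages did not overlap in SHRSP, as in 5.82% of IDs in that direction, and overlapped by 1 early library in Wistar animals. The rise was 2.62-fold in SHRSP (log2 fold 1.39, SE 0.38, adjusted p = 0.0257; 6.12% of IDs called higher, 8.85% in either direction) and 3.22-fold in Wistar neurons (log2 fold 1.69, SE 0.39, adjusted p = 0.0131; 5.84% and 9.31%).

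This rise was also set against the library split. In the high-share early neuron libraries Slc1a2 had 23.7 CPM (SHRSP animal 383) and 40.4 CPM (Wistar animal 349). The value of animal 349 was the highest of early Wistar neurons. That of animal 383 lay within the range of the other early SHRSP neurons (14.3 to 24.8 CPM). It was below every late SHRSP neuron library (34.0 CPM or more). With the split as a term the log2 folds were 0.91 in SHRSP (adjusted p = 0.976) and 1.26 in Wistar (adjusted p = 0.954), and 0 of 10833 IDs were called in either strain. In high-share animals alone they were 1.26 (adjusted p = 0.679) and 0.92 (adjusted p = 0.9896), with 1 early library a strain. The call was also lost without any 1 of 7 animals in SHRSP (374, 377, 378, 379, 380, 384 or 386) and without animal 350 or 353 in Wistar neurons. Stage and library split cannot be told apart here beyond those 2 early animals.

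The other genes moved less between stages in neurons. Gja1 had log2 folds of -0.49 in SHRSP (SE 0.22, adjusted p = 0.153) and -0.39 in Wistar neurons (SE 0.23, adjusted p = 0.282). In high-share animals alone the SHRSP value was 0.15. Apoe had -0.36 (SE 0.17, adjusted p = 0.181) in SHRSP and -0.03 (SE 0.18) in Wistar neurons, the Wistar value turning to 0.02 with DESeq2-type scaling. Gfap, with 23 to 70 counts per neuron library, had -0.28 (SE 0.36) in SHRSP and 0.01 (SE 0.38) in Wistar neurons. Aqp4 had -0.03 (SE 0.25) and 0.14 (SE 0.26), and S100b -0.21 (SE 0.15) and 0.05 (SE 0.16). High-share animals alone turned Gfap to 0.15 in SHRSP and -0.41 in Wistar neurons, and Aqp4 to 0.36 and -0.15. There the Wistar values of Apoe (0.21) and S100b (-0.01) turned as well.

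**Figure D4:**
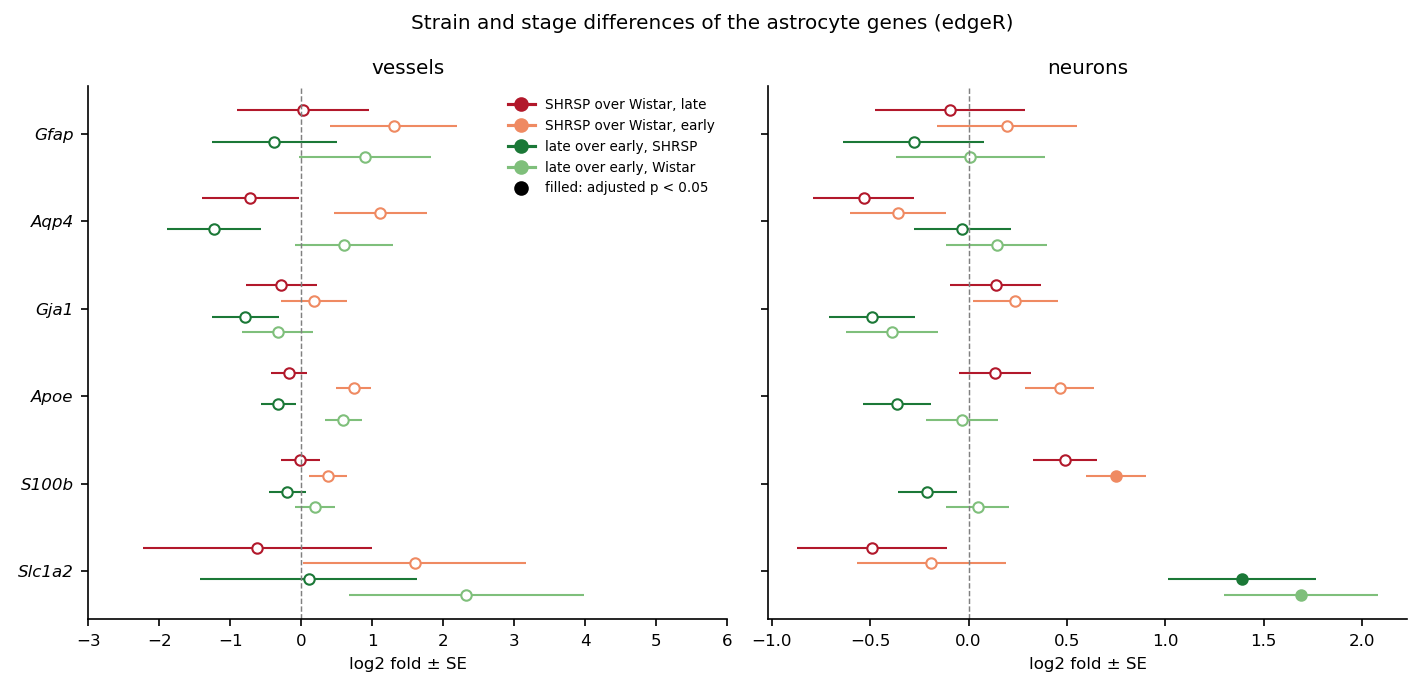
Log2 fold with its SE for each gene in 4 comparisons, in vessels (left) and neurons (right); filled points have an adjusted p under 0.05. The filled points are S100b in early SHRSP over Wistar neurons and Slc1a2 in late over early neurons of both strains; no vessel point is filled.

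Across libraries the 6 genes did not vary as a block. In the 19 vessel libraries Spearman's rho between 2 of the genes ran from -0.47 (Gja1 and Slc1a2) to 0.54 (Gfap and Apoe). In the 19 neuron libraries it ran from -0.67 (Aqp4 and S100b) to 0.78 (Gja1 and Apoe). The IDs whose levels were most like the mean of the 6 were ENSRNOG00000023520 (rho 0.80) and ENSRNOG00000059900 (rho 0.80) of 11005 in vessels, and ENSRNOG00000018951 (rho 0.81) and ENSRNOG00000009754 (rho 0.81) of 10827 in neurons. These correlations are descriptions over libraries that share their scaling and the library split.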

How the data were processed

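Total RNA of laser-microdissected vessels and neuron clusters was isolated with the PicoPure kit and sequenced from 3′ ends with Lexogen's QuantSeq forward kit, per the labels' protocols. Such reads lie near transcript ends, so levels of different genes were not compared. The authors deposited whole-number counts per Ensembl ID, without normalization. The tools named in the submitters' processing notes include HTSeq 0.6.1 and STAR 2.5.3a, beside DESeq2 1.18.1 and FastQC 0.11.5, with no role stated. No source used here gives the genome build, the annotation, the strand setting or how pieces were picked.

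Groups followed the labels. The 6 genes, all named in every comparison, and the gene lists were chosen with earlier results of these data known. 0 of the 32883 IDs matched the GRCr8 reference gene table, so 11 lists of 114 genes, markers of other cell types among them, were not applied. Names of the 6 genes come with the rule that chose their IDs.

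Counts were tested with edgeR 4.0.16 in R 4.3.3 (TMM scaling, filterByExpr filter, robust quasi-likelihood F test, two-sided), over all IDs, with calls at a Benjamini-Hochberg adjusted p under 0.05. Strain and stage were tested within each material in 1 fit of its 4 groups, and materials over 38 libraries with the animal as a block. An SE is the log2 fold divided by the square root of F. The fit across materials shares 1 spread per ID, although 5 of the 6 genes varied more in vessels (coefficients of variation from 0.299 for Apoe to 1.02 for Slc1a2 in vessels, and 0.248 and 0.653 for the same genes in neurons) and S100b less (0.273 in vessels and 0.294 in neurons). The differences between pairs of genes used log2(CPM + 1) per animal and 100000 sign flips. The scripts were tested on simulated data. Alternatives were DESeq2 1.42.0, limma voom 3.58.1, other scaling, no filter, the library split, no block, 2-group fits, other pseudocounts and leaving out each animal.

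The block rests on reading the number in the titles as the animal. Taken as deviations from the group mean, libraries of the same number correlated at -0.231 to 0.407 over the 19 pairs (median 0.0473, 5 over 0.1, 3070 IDs). Over 72 pairs of libraries within groups the smallest chi-square per degree of freedom was 4.88, so none was counted as a repeat. Replicates are separately numbered animals, and their spread holds that of the animals, the cutting and the library making, which the p-values reflect.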

Additional observations from a re-analysis of the deposited data

Results flagged for a closer look

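Apoe in late Wistar neurons had a library far from the others: animal 351 had 1122 CPM, against 648 CPM in the next highest of the 4 libraries. It was the 1 such case among 48 combinations of gene and group, where chance gives about 1 in 20.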

How the results depend on the processing

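The counts of called genes below are of 6. For vessels over neurons the mean of groups gave 6, 5 to 6 without 1 animal and 2 in low-share animals only. For early SHRSP, 2 became 5 with DESeq2, 4 with DESeq2-type scaling, 1 in low-share animals and 2 to 3 without 1 animal. For late SHRSP, 1 became 2 with DESeq2, 0 with the library split as a term, 3 in high-share animals and 3 with voom. For early Wistar, 1 became 4 with DESeq2, 2 with other scaling, 3 with the split, 0 in high-share animals and 2 with voom. For late Wistar, 1 became 2 with DESeq2, 0 with the split, 5 in high-share animals and 2 with voom. With the split as a term these counts are for the low-share level, which no late animal had. The 0 of late SHRSP and of late Wistar animals was thus extrapolated. It cannot show whether their calls depend on the split. Without 1 animal late SHRSP, early Wistar and late Wistar animals each gave 1 to 2. Every gene gained came without animal 377, which gained Aqp4 in early SHRSP, Gfap in late SHRSP and S100b in both Wistar groups, or, for S100b, without animal 349 (early) or 374 (late). With no replicate block, late SHRSP and late Wistar each had 2, and Slc1a2 in the mean of groups had a log2 fold of -0.20 (adjusted p = 0.844); the pairing changed no other count by over 1.5 times. Late minus early had 1 with DESeq2, Slc1a2 (adjusted p = 0.0258). In neurons, the strain difference as a mean of stages had 0 in high-share animals, and early it had 0 in high-share animals, in low-share animals and with only the 2 groups fitted. The stage difference had 0 in SHRSP with the split, in high-share animals and with voom, and 0 in Wistar with the split, in high-share animals and with only the 2 groups fitted. Without 1 animal the early strain difference in neurons and in vessels and both stage differences in neurons ran from 0 to 1. The pairs of genes gave 4 in low-share animals, where 8 animals allow no exact p below 0.00781, and 11 without each animal. Of 114 log2 folds of the 6 genes, 36 changed sign in high-share animals only, 10 with the split as a term, 8 with voom, 7 with DESeq2, 7 with DESeq2-type scaling and 2 with no filter. The 1 called among them was Slc1a2 in vessels over neurons (0.21 in high-share animals). High-share animals alone leave 1 early animal a strain. Of the changes not called, Slc1a2 there had 0.24 in early Wistar and 1.34 in early SHRSP vessels over neurons. Gja1 there had 0.15 in late over early SHRSP neurons. The cause of these changes was not tested. Of 519 counts recomputed, 466 stayed within 1.5 times, where a 0 that stayed 0 was included. Of the 519, 380 left out 1 animal, and 358 of those stayed. Of the 139 from other alternatives, 108 stayed. Slc1a2 in the mean of groups was called in 11 of 27 alternatives, Gfap in 26, Aqp4 and Gja1 in 25 each, and Apoe and S100b in all 27. Counting limits the precision of Gfap in neurons (23 to 70 counts a library). Slc1a2 in vessels had 1 count of 3504132 in animal 368 and 262 of 2291689 in animal 353. In animal 377, with the lowest vessel total, it had 1 of 1612966. Whether its counts follow the total was not tested.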
